A study of Mus musculus with 9 samples.

Results

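The T-box transcription factor genes examined here were Tbx1, Tbx2, Tbx3, Tbx4, Tbx5, Tbx6, Tbx15, Tbx18, Tbx20 and Eomes, chosen by name. Their members were the distinct accessible regions whose assigned gene symbol was one of these 10, and a gene with no region in the list counted as having none. The list held 17164 distinct regions assigned to 11541 genes, and 13 of them were assigned to 5 of the 10 T-box genes. Tbx18 had 5 regions, Tbx20 had 4, Tbx15 had 2, and Tbx3 and Eomes had 1 each. Tbx1, Tbx2, Tbx4, Tbx5 and Tbx6 had none.

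The study used ATAC-Seq, which maps open chromatin by the insertions of the Tn5 transposase, to ask how loss of Isl1 or of the chromatin remodeler Brg1 changes accessibility in cardiac progenitors. Hearts and pharyngeal mesoderm were dissected at embryonic day 8.75 (6 somites) for 9 libraries, 3 from wild-type (wt) controls, 3 from Isl1-/- embryos and 3 from Isl1Cre+/-/ Brg1fl/fl embryos. The Isl1Cre allele places Cre recombinase under the Isl1 locus, so that floxed Brg1 is lost in cells with an Isl1 history, and 1 copy of Isl1 is replaced. The data were 1 list of regions found in all 3 control libraries, and the 2 mutant groups were not analysed here. The list has no height, score or value per library, so no region had a replicate error, no difference was tested, and the read depth was unknown.

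T-box factors bind DNA through a shared domain and either activate or repress their targets. In the early heart they divide the tube into chambers and canal: Tbx5 and Tbx20 promote chamber muscle with Nkx2-5 and Gata4, and Tbx2 and Tbx3 repress the chamber program in the atrioventricular canal and conduction system. Tbx1 keeps second heart field progenitors dividing in the pharyngeal mesoderm, Tbx18 marks the sinus venosus and proepicardium, and Eomes acts earlier, in mesoderm leaving the primitive streak.

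The regions of Tbx18 and Tbx20 outside their starts carried most of the count, and 5 of them are shown by the 300 bases at their midpoints, from the plus strand of mm9. Capitals mark every match, on either strand, to 1 of 11 short letter strings taken for the binding sites of heart and pharyngeal factors, which are spelled out with their counts below. The Tbx20 regions 6916 and 182348 bp upstream held no match in that window and are not shown. The sequences shown are therefore only ones with a match.
Tbx18 upstream (chr9:87634748-87635047): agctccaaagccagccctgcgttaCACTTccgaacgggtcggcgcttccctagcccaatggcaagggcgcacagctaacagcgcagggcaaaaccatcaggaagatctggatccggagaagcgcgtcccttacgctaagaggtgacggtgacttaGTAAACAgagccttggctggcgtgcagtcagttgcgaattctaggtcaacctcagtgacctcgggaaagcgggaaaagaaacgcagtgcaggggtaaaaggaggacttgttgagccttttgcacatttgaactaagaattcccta
Tbx18 downstream, nearest (chr9:87513200-87513499): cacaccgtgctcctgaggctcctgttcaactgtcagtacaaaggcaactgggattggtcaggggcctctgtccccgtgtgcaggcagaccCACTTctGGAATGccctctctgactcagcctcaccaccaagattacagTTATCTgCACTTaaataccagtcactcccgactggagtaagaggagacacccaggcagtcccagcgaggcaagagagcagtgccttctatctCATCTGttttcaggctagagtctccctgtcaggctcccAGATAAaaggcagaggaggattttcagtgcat
Tbx18 downstream, middle (chr9:87451700-87451999): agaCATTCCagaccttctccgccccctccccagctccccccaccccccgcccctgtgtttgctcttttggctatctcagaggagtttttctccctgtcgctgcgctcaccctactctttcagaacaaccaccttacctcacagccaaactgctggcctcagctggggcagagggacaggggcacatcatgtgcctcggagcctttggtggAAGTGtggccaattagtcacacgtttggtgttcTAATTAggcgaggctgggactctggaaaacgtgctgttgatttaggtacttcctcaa
Tbx18 downstream, farthest (chr9:87400256-87400555): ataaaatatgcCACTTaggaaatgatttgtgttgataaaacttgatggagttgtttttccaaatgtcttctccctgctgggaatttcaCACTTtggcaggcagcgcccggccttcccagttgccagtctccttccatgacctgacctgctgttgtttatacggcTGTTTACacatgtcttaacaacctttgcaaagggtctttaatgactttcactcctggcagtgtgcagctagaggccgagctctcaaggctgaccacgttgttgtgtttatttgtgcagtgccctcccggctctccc
Tbx20 far upstream (chr9:24748352-24748651): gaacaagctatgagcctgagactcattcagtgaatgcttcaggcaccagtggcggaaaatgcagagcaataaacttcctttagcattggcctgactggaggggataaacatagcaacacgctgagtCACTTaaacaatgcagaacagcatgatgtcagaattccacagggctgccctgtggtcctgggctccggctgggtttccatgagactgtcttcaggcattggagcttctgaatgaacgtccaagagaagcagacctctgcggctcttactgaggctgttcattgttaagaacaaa

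The 2 genes with the most regions, Tbx18 and Tbx20, together held 9 of the 13, and both belong to the Tbx1 group of the family, with Tbx1 and Tbx15. Of the 10 genes, 2 had 4 or more regions, against 2.52% of the 21031 protein-coding genes of the reference table. By the nearest annotated coding start, Tbx20 had only 2 regions, neither more than 10 kb away, and Tbx18 still had 5. In all, 5 of 10 (50%, 95% Wilson interval 23.7 to 76.3) had any region, where 49.3% of coding genes did. A region within 1 kb of the assigned start was present for the same 5 genes, against 40.6% of coding genes, and one more than 10 kb away for 3 genes, against 15.2%. Of these 3, Tbx15 had its far region 1026 bp from the start of a Tbx15 transcript not annotated as protein-coding. With a limit of 500 bp in place of 1 kb, 3 of the 10 genes had a region by its midpoint, against 38.7% of coding genes. The members' count thus lay above the background at 1 limit and below it at the other. Both limits are on the midpoint, and the regions of all 5 genes covered an annotated coding start of their gene. These intervals cover the number of genes only.

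**Figure D1:**
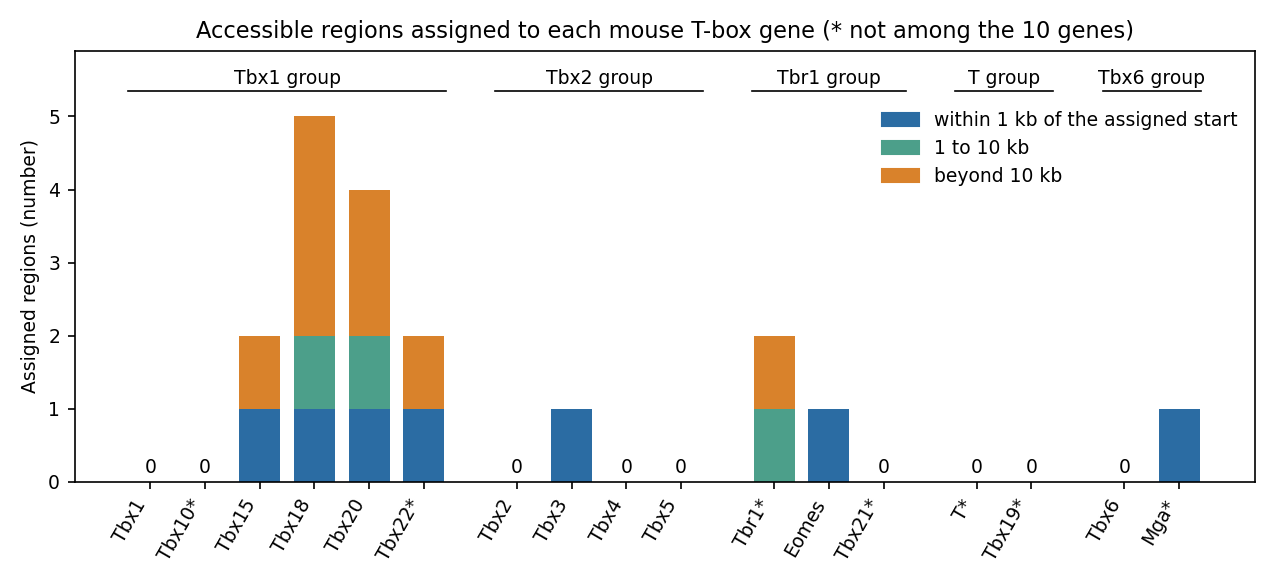
Number of distinct accessible regions assigned to each T-box gene in the control list, split by how far the midpoint lay from the assigned start (within 1 kb, 1 to 10 kb, beyond 10 kb). Tbx18 had 5 regions and Tbx20 had 4, and 5 of the 10 genes had none.

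Tbx18 lies on chromosome 9 (mm9, chr9:87597635-87626095, minus strand), with 596.4 kb to the nearest coding gene upstream, Nt5e, and 447.3 kb to the nearest downstream. Its 5 regions covered 8548 bp. The start region, at chr9:87624086-87626759, was 2674 bp wide with its midpoint 673 bp into the gene in a coding exon. It was wider than 98.1% of all regions within 1 kb of a start. The upstream region at chr9:87633839-87635956 was 2118 bp wide, with its midpoint 8802 bp before the start, and wider than 94.5% of the regions 1 to 10 kb from a start. Both were among the widest of their classes.

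The other 3 regions of Tbx18 lay past the 3' end of the gene. They were 1028 bp wide at chr9:87512836-87513863 (112746 bp from the start), 1222 bp at chr9:87451239-87452460 (174246 bp) and 1506 bp at chr9:87399653-87401158 (225690 bp). Of all regions beyond 10 kb, 63.8%, 83.0% and 93.1% were narrower. These 3 were wider with distance from the gene, although no height was listed by which to compare their signals. The downstream regions lay 50.1 and 60.4 kb from each other and 110.2 kb from the start region, where the median was 72839 bp between neighbouring regions of the whole list. The 3 sequences differed in their matches. The nearest held 2 GATA strings, a TEAD string, an E-box and 2 NKX2 strings, the middle one a homeodomain, a TEAD and an NKX2 string, and the farthest a forkhead and 2 NKX2 strings.

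Tbx20 (chr9:24527648-24578746, minus strand) had a start region at chr9:24577957-24579586, which was 1630 bp wide and centered 24 bp before the start. A second region at chr9:24585190-24586137 was 948 bp wide and lay 6916 bp upstream. It was GC rich (59.9%), and none of the 11 strings was found at its midpoint. A pair of narrower regions lay far upstream, at chr9:24748083-24748919 (837 bp wide, 169754 bp from the start) and at chr9:24760719-24761471 (753 bp wide, 182348 bp from the start), 11.8 kb apart. Only 34.2% and 20.4% of regions beyond 10 kb were narrower than these. By GENCODE the far pair was nearer to Gm10181, whose coding start was 145365 and 132771 bp away, so assignment to the nearest coding start left Tbx20 with 2 regions. The list names 1 gene for each region and does not show which gene a region acts on.

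Tbx15, known for its part in skeletal and skin patterning, lies on chromosome 3 (chr3:99044304-99158182, plus strand). Its start region at chr3:99056566-99058380 was 1815 bp wide and centered 210 bp before the assigned start. The other, at chr3:99044635-99046026, was 1392 bp wide and 12353 bp upstream of that start, but lay in an intron of a longer Tbx15 transcript. It was 1026 bp from the start of a Tbx15 transcript not annotated as protein-coding. Of the 8 members' regions over 1 kb from a start, it was the only one inside a gene by its midpoint, and the other 7 were intergenic.

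**Figure D2:**
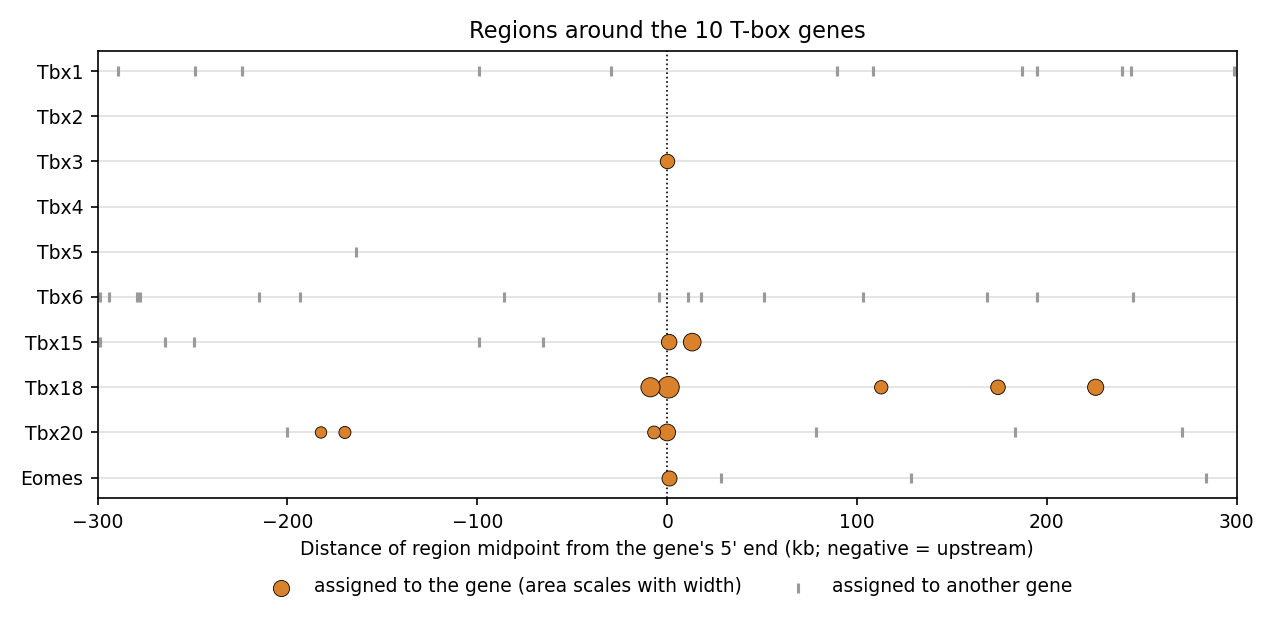
Accessible regions around the T-box genes, by the distance in kb of the region's midpoint from the 5' end of the gene in GENCODE, with regions assigned to the gene as discs (area scales with width) and those assigned to other genes as ticks. Tbx15 is plotted from its longest transcript, so its regions lie to the right of that end, while Tbx18 has 3 assigned regions past 100 kb and Tbx2 and Tbx4 have an empty span.

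Tbx1, the gene of this group most tied to the pharyngeal mesoderm that was dissected, had no assigned region (chr16:18581806-18588113, minus strand). The nearest region of any gene was 29.8 kb away and was assigned to Gp1bb. There were 12 regions within 300 kb, 8 of them at the starts of the genes to which they were assigned, so the neighbourhood was not empty of regions. The region-free span that held the gene was 118 kb, longer than 65.4% of such spans in the list. A gene with no region in a list that requires a call in each of 3 libraries cannot be said to have closed chromatin.

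In the Tbx2 group, only Tbx3 had a region. Tbx3 (chr5:120120678-120134733, plus strand), a repressor active in the sinoatrial node and limb, had 1 region at chr5:120120144-120121345, 1202 bp wide with 61.4% GC. It was centered 127 bp before the assigned start. By GENCODE its midpoint was in an untranslated exon, 66 bp from the nearest annotated start. Apart from it, the nearest region of any gene to Tbx3 was 614235 bp away. Tbx5 (chr5:120284672-120335227, plus strand), which neighbours Tbx3 at 149.9 kb, had none, and the nearest region was that of Tbx3, 163.9 kb from its start. The region-free span around Tbx5 was 917 kb, longer than 98.4% of the list's.

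Tbx2 (chr11:85646053-85655450) and Tbx4 (chr11:85699924-85729599), neighbours on the plus strand of chromosome 11, lay in 1 region-free span of 847 kb (chr11:85167225-86014186), longer than 98.1%. No region fell within 300 kb of either start, and the nearest were 368.6 kb from Tbx2 and 304.4 kb from Tbx4. Across the Tbx3 and Tbx5 pair and the Tbx2 and Tbx4 pair, the start of Tbx3 was the only place with a region.

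Eomes (chr9:118387330-118395250, plus strand) had 1 region at chr9:118387538-118388841, 1304 bp wide and within a coding exon by its midpoint, 882 bp from the assigned start and 210 bp from the nearest annotated start. It was the most GC-rich of the 13 (68.3%, with 9.66 CpG dinucleotides per 100 bp). Tbx6, needed for paraxial mesoderm, had none (chr7:133924997-133929074), but a region assigned to Ypel3 lay 4.6 kb away, and 15 regions, 13 of them at starts, lay within 300 kb. Of the 5 genes with a region, 2 had 1 only, where 73.2% of genes with a region did.

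By distance, 5 of 13 regions (38.5%) lay within 1 kb of the assigned start, 2 (15.4%) at 1 to 10 kb and 6 (46.2%, interval 23.2 to 70.9) beyond 10 kb. Of these 6, the Tbx15 region lay 1026 bp from the start of a Tbx15 transcript not annotated as protein-coding. The shares over all regions were 52.9%, 7.81% and 39.3%, and the far share lay within the interval of the members. Beyond 100 kb lay 5 of 13, against 14.9% of all regions. Without Tbx18, 37.5% lay beyond 10 kb. The median width of the 13 was 1304 bp against 1123 bp for all regions. Within 1 kb of a start the medians were 1630 and 1294 bp, with 4 of 5 at or above the latter, and beyond 10 kb they were 1125 and 937 bp, with 4 of 6. The values of regions of 1 gene share their place, and 9 of the 13 come from 2 genes.

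**Figure D3:**
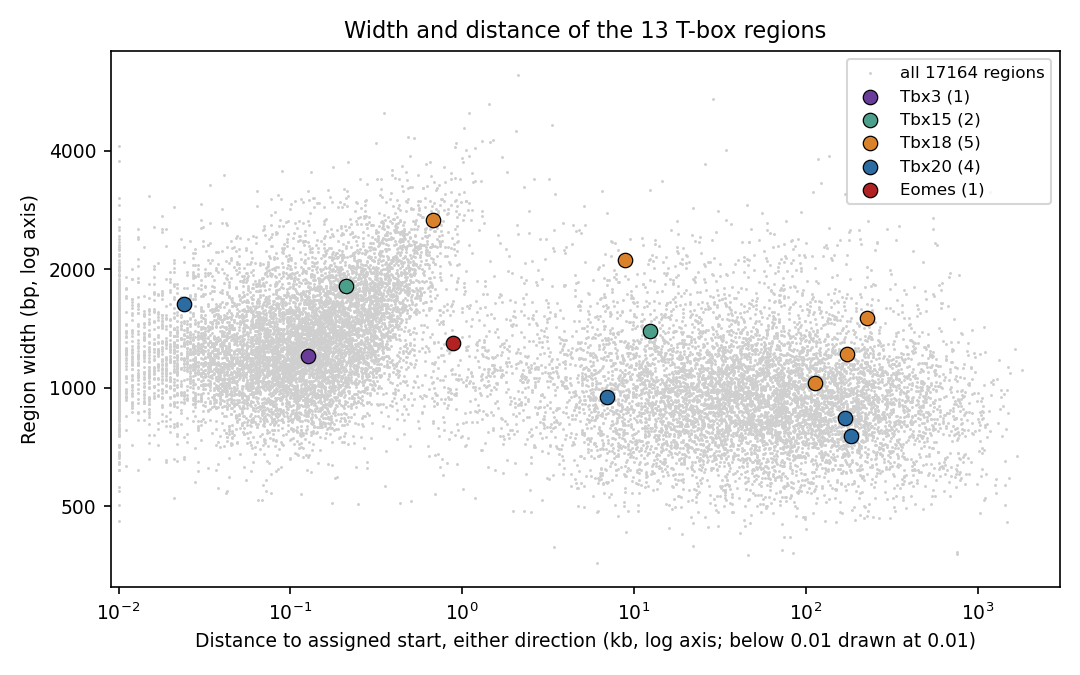
Width in bp of each region against its distance in kb from the assigned start, whichever the side (both axes logarithmic), with the 13 T-box regions over all 17164. The Tbx18 regions at and before its start are the widest 2 of the 13, at 2674 and 2118 bp, and the far Tbx20 pair the narrowest, at 837 and 753 bp.

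The start regions of the T-box genes had more GC than those far away, as was so over all regions. The regions within 1 kb of a start had a median GC content of 60.8%, against 58.1% for all such regions, and 7.63 CpG per 100 bp against 5.93. The start regions of Tbx15 (56.1% GC, 5.18 CpG) and Tbx20 (57.5%, 4.60) lay below both medians of all such regions. Beyond 10 kb the medians were 46.2% and 1.38, against 46.8% and 1.25. The Tbx18 region at 8802 bp and the Tbx20 region at 6916 bp had 57.8% and 59.9% GC and 5.15 and 5.17 CpG per 100 bp, above the medians of 51.7% and 2.46 over all regions 1 to 10 kb from a start and closer to the values at the starts.

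The CpG content of gene starts, taken within 500 bp of the annotated coding start with the most CpG, differed widely among the 10 genes. The CpG-richest start was that of Tbx1 (11.7 per 100 bp), which had no region, and the next was that of Eomes (10.7), which had one. The others with a region had 8.39 (Tbx3), 7.09 (Tbx15), 5.79 (Tbx20) and 5.49 (Tbx18), and the others without had 9.39 (Tbx2), 4.90 (Tbx4), 2.90 (Tbx6) and 0.80 (Tbx5). Among coding genes ranked into deciles by CpG content, in the decile of the Tbx1 start, 76.2% had a region at a start, and in those of Tbx2 and Tbx4 73.4% and 65.4%. In the deciles of Tbx6 and Tbx5, 21.3% and 1.30% did. Tbx1, Tbx2 and Tbx4 were therefore without a region where most genes of like CpG content had one, while Tbx5 and Tbx6 were not. The value of Tbx4 is that of the richest of its 3 annotated coding starts. In the 250 bases before its RefSeq start it held 2.4 CpG per 100 bp, as Tbx6 did. That window is shorter and upstream only, so the place of a gene may depend on the start or the window. In it, Eomes (3.2) and Tbx1 (6.8, and 4 at a second promoter) were also lower, and Tbx20 (8.8) and Tbx18 (6) were higher.

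**Figure D4:**
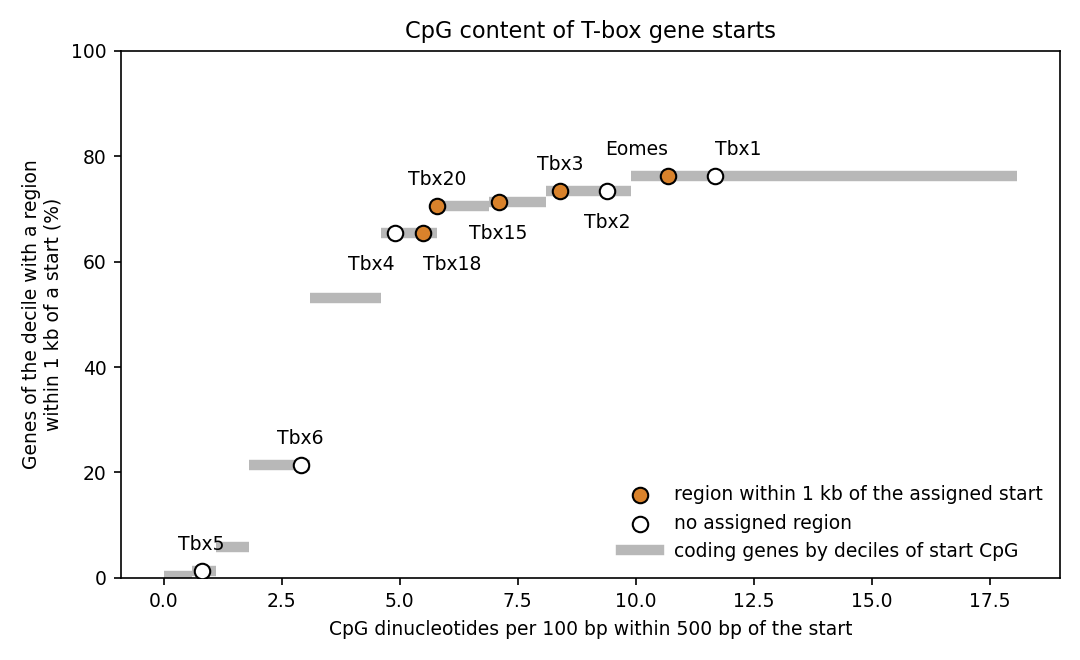
CpG dinucleotides per 100 bp within 500 bp of each gene's start (horizontal axis) and the percentage of coding genes in the same decile of CpG content with a region within 1 kb of a start (vertical axis, grey bars over each decile's range). Filled points are T-box genes with a region there and open points those with none, with Tbx1 and Tbx2 open in deciles where 76.2% and 73.4% of genes had one, and Tbx5 open in a decile where 1.30% did.

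The RefSeq sequence tables (GRCm38.p6) held a promoter for 6 of the 10 genes. The 250 bases before the start are shown for a gene with a region at its start (Tbx20) and for 2 without (Tbx1 and Tbx6), with each CpG in capitals and coordinates in that build.
Tbx20 (chr9:24774304-24774553, minus strand): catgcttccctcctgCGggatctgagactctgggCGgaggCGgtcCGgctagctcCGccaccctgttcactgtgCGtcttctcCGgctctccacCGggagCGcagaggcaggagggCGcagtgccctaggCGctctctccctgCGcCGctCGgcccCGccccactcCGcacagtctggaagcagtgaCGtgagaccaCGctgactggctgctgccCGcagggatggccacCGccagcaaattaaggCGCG
Tbx1 (chr16:18588900-18589149, minus strand): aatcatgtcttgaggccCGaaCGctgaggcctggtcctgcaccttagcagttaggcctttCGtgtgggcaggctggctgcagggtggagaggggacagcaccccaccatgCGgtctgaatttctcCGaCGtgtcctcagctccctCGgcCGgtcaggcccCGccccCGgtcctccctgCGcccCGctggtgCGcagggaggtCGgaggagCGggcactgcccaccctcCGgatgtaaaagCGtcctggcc
Tbx6 (chr7:126781233-126781482, plus strand): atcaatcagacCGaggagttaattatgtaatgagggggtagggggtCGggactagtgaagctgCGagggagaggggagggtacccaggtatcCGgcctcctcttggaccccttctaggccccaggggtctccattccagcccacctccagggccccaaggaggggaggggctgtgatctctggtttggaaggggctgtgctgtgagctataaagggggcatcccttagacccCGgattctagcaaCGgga
The Tbx20 window held 22 CpG, the Tbx1 window 17 and the Tbx6 window 6. Of the genes not shown, Tbx18 and Eomes, both with a region at the start, held 15 and 8. Tbx4, without a region, held 6. The table holds a second Tbx1 promoter, at chr16:18590672-18590921, which held 10 CpG. With the 50 bases after the start included, the string TATAAA was found for Tbx6 and Tbx4, and 13.6% of 32544 promoters of that length held it. It was searched on either strand and at any position, so a match is not by itself a TATA box.

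No region of the T-box genes held the full T-box string AGGTGTGA, either at its midpoint or in its whole length. In 300 bp, 0 of 13 allows a share of up to 23.1%, and 0.57% of all regions held it. In their whole length, 3.57% of all regions held the full string. Its core, AGGTGT, which is part of the full string, was found at the midpoints of the start regions of Tbx3 and Eomes, so in 2 of 13 (15.4%) against 9.42% of all. Over the whole length, 3 of the 5 start regions held the core, against 45.1% of all regions within 1 kb of a start. Of the 8 others, 2 held it, against 36.6%. A match is a description of the letters and does not show binding.

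For the 8 regions over 1 kb from a start, 6 held the NKX2 string AAGTG within the midpoint window, against 47.9% of the 8081 regions of the list over 1 kb from a start. The flanks 3 kb away held it in 52.9%. In the whole region all 8 held it, against 88.6%. Of the 5 start regions, 0 held it at the midpoint, against 34.9% of regions within 1 kb of a start. The forkhead string TGTTTAC was in 2 of the 8, both of Tbx18, against 5.49%, and the TEAD string CATTCC in 2, also of Tbx18, against 22.2%. The GATA string AGATAA was in 1 region, with 2 matches, against 14.5%. The homeodomain string TAATTA was in 1, against 8.11%. The E-box string CATCTG was in 1, against 21.8%. The Isl1 string CTAATG was in none at the midpoint, against 11.2%, and in 3 over the whole region, against 31.9%. The MEF2 core TATTTATA was at the midpoint of 0 of the 13. Over all regions it was in 0.24% of those within 1 kb of a start and 0.66% of the others. The CTCF core CCACNAGGG was in the Tbx3 start region, against 1.57% of regions within 1 kb of a start. All strings were searched on both strands.

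The mouse has other T-box genes, and the 7 examined beside these 10 had 5 regions over 3 genes. Tbr1, a gene of cortical neurons, had 2, Tbx22, a gene of palate formation, had 2, and Mga had 1. T (Brachyury), Tbx10, Tbx19 and Tbx21 had none. Over all 17 genes, 8 had a region (47.1%, interval 26.2 to 69.0), against 49.3% of coding genes. By group, the Tbx1 group (Tbx1, Tbx10, Tbx15, Tbx18, Tbx20 and Tbx22) had 13 regions on 4 of 6 genes, and 7 of them lay beyond 10 kb, the Tbr1 group 3 regions on 2 of 3 genes, the Tbx2 group 1 region on 1 of 4, the Tbx6 group 1 region on 1 of 2, and the T group none on its 2 genes. No test was run between these groups.

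The T-box factors act with other transcription factors and with chromatin complexes. Of 20 such partner genes, 15 (75%, interval 53.1 to 88.8) had one, with 44 regions, the most at Isl1 (9) and at Tle1 (9), a co-repressor, and 5 each at Mef2c and Tle4. Nkx2-5, Gata6, Hand1, Smarcd3 and Tle3 had none. Of 23 genes on which T-box factors act, 16 (69.6%, interval 49.1 to 84.4) had one, with 40 regions in all. Among them were Has2 (6), which makes the hyaluronan of the cardiac cushions, and Mycn and Bmp2 (5 each), while Fgf10 and the connexin gene Gja1 had 4 each. Nppa, Gja5, Fgf8, Gbx2, Mesp1, Dll1 and Msgn1 had none. The share over all coding genes was 49.3%, which lies within the interval of the target genes. The lists were chosen by name with these data known, so no share was tested.

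Regions were also counted at markers of cell types, beside the 49.3% of all coding genes with a region. They were at 2 of 6 cardiomyocyte markers (Actn2, Hcn4) and at 4 of 7 of the pharyngeal mesoderm and second heart field, and at 3 of 5 endothelial, 1 of 4 blood, 4 of 5 neural, 2 of 4 neural crest and 2 of 5 endoderm markers. These counts do not separate the dissected tissue from other tissues, a region at a gene does not measure its RNA, and the part of other cells in the T-box regions was not tested.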

How the data were processed

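ATAC-Seq was done by the authors on wild-type, Isl1-/- and Isl1Cre+/-/ Brg1fl/fl embryos, 3 libraries each. Only the control list was used, and other libraries were not analysed here. Per the methods, the authors mapped pairs to mm9 with bowtie2, filtered with samtools, removed duplicates with Picard 1.136, called peaks in each library with MACS14, removed blacklisted regions and intersected the replicates with bedtools 2.15 at a minimum overlap of 1 bp. The columns, as deposited, are coordinates, the distance in bp to the assigned start, a RefSeq transcript and a symbol; the tool that assigned genes is not stated for these regions. Widths include the shift of the tags and rise with read depth, which is unknown. No Tn5 offset is stated.

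Repeated rows of 1 region were collapsed (17432 rows, 17164 regions), with no column of values left unmapped. Regions were read from NCBIM37 with GENCODE vM1 (0 regions ended beyond their chromosome). The 95% Wilson interval covers counting error only. Calculations used Python 3.11.15, numpy 2.4.6, pandas 2.3.3, scipy 1.17.1 and matplotlib 3.10.9. The string search was tested on random sequence with planted strings, and the GC and CpG counts on short made-up sequences. The other calculations were not tested on simulated data. All 10 genes were named, with the genes with the most and with no region in each list, of which some are not reported here. Members and lists were chosen with earlier results of these data known.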

Additional observations from a re-analysis of the deposited data

How the results depend on the processing

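No paired analysis was possible because the list holds no value per library, and leaving out each library in turn was not run for the same reason. Of 25 alternatives, 22 stayed within 1.5 times the count or within the spread of the regions. With a limit of 500 bp in place of 1 kb, 3 genes had a region midpoint that near the assigned start instead of 5, against 38.7% of coding genes. With CpG taken in the 300 bp at the midpoint, the median was 5.67 per 100 bp instead of 4.60, and over all regions 5 instead of 3.825. The median GC content counted as within the spread but changed sides. It was 56.1% against 53.6% for all regions in whole length, and 55.7% against 58.7% in the 300 bp. Without the regions of Tbx18, chosen after seeing the data, 8 regions were left instead of 13. Assignment to the nearest annotated coding start gave 11 regions. Depth was unknown, so a gene without a region may lie under the limit of the calls.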

Other observations

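Of 22 genes for signals and factors that lie upstream of Tbx1 and other T-box genes, 13 (59.1%, Wilson interval 38.7 to 76.7) had a region, with 37 regions in all, and the 49.3% of all coding genes lies within that interval. The most were at Eya1 (8), a transcriptional cofactor active in the pharynx, at Rarb (7), a receptor for retinoic acid, and at Lef1 (5), an effector of Wnt signals, with 4 each at Foxa2 and Foxc1. Shh, Foxc2, Aldh1a2, Cyp26a1, Cyp26b1, Cyp26c1, Rara, Wnt3a and Nodal had none. Assignment to the nearest annotated coding start would give Tbx19 2 regions, where the list gives it none.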
